A study of Daphnia magna with 3 samples.

Results

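The 37 transcripts described here had hemocytes and carcass of the water flea Daphnia magna as their 2 highest body parts by median level. They also met further limits, out of 33957 model transcripts and out of 4596 that had at least 100 reads over 21 libraries. The 37 were chosen from the measured levels themselves. For each body part the median over the 3 replicates of the reads of a transcript was taken, scaled to a library of 1000000 reads (CPM), and the share of a body part is that median divided by the sum of the 7 medians. A member had at least 100 reads, no share of 0.4 or more, hemocytes and carcass as the 2 highest shares, and a sum of these shares (the pair share) of at least 0.5. It also had an egg share of at least 0.01 or a pair share of at least 0.6. The levels in hemocytes and carcass are therefore given as a description and were not tested.

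All animals carried the genotype IL-M1-8 and received no treatment beyond standard culture at 20 °C in ADaM medium, 20 mL per adult, with green algae fed daily at 100000 cells per mL. RNA of 7 body parts was barcoded in each of 3 pools, numbered replicates 3, 4 and 7: hemocytes, eggs, gut, antenna, head, carapace and carcass (the labels give Body as its second name). The cDNA was ligation-prepared and read on Oxford Nanopore. The labels do not say how many animals a pool held or whether the pools came from separate cultures, so the spread between replicates may be technical, and p-values measure that spread only.

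Daphnia has an open circulation, in which the heart moves hemolymph through spaces around the organs. Hemocytes are the cells that circulate in it, and in crustaceans they are known for phagocytosis, clotting and wound closure. The trunk of Daphnia carries the filtering limbs, the ovaries and fat cells. The deposited identifiers are names of gene models with no gene name, and 0 of 33957 matched the RefSeq table of this species, so no function is given for any member and neither hemocytes nor carcass could be checked against markers. In bulk RNA of a body part, fewer cells of a type and less RNA per cell cannot be told apart.

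Depth differed widely. Libraries held from 4161 reads (gut of replicate 4) to 1105094 (antenna of replicate 7), hemocytes 59943 to 270725 and carcass 177033 to 416875. The gut library of replicate 4 stood apart: 67.2% of its reads were on 1 transcript that is not a member, and 1 read in all fell on the 37 members. A count of 0 in it allows up to 721 CPM, a level that 27 of the 37 members reached in no library, and 3 counts is the allowance used for every such limit. Limits and intervals cover counting error only.

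Together the members took a small part of every library. In hemocytes of replicates 3, 4 and 7 they held 1.07%, 0.986% and 1.34% of the reads, and in carcass 0.888%, 1.23% and 1.88%. The means were 1.13% ± 0.183 and 1.34% ± 0.505 (SD, n = 3), which the rule made high. In eggs the share was 0.458% ± 0.108 (SD, n = 3), with all 3 libraries below every hemocyte and carcass library. The antenna had 0.486% ± 0.129 and the carapace 0.535% ± 0.101 (SD, n = 3), and neither overlapped hemocytes or carcass. With library sizes scaled by TMM, which corrects for a few transcripts taking a large part of a library, both did overlap. The antenna of replicate 7 was at 0.971% and the carapace of replicate 3 at 0.837%, above the hemocytes of replicate 4 at 0.756%. That antenna was also above the hemocytes of replicate 3 at 0.960% and the carcass of replicate 3 at 0.859%. The 3 egg libraries were below every hemocyte and carcass library on that scale too, at 0.202%, 0.239% and 0.356%. The rule placed every other body part below hemocytes and carcass by median share, so this order is a description only on either scale. The 3 head libraries were further apart, at 0.767%, 0.176% and 0.452% of total reads. With TMM-scaled sizes they were at 0.591%, 0.701% and 0.980%. The last, from replicate 7, was above the hemocytes of replicates 3 and 4 and the carcass of replicate 3.

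The place of the gut depended on the scaling. Of total reads, its share was 0.786% in replicate 3 (exact 95% binomial interval 0.692 to 0.888) and 1.12% in replicate 7 (0.999 to 1.26), so the gut of replicate 7 was above the carcass of replicate 3 and, with overlapping intervals, above the hemocytes of replicates 3 and 4. In replicate 4 it was 0.0240% (0.000608 to 0.134), and 0.0733% of the 1364 reads that were not on the most counted transcript. Without the gut of replicate 4 the gut mean was 0.954%, against 0.644% ± 0.563 (SD, n = 3) with it. With TMM-scaled sizes the gut of replicates 3 and 7 was at 0.635% and 0.640%, below every hemocyte and carcass library.

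**Figure D1:**
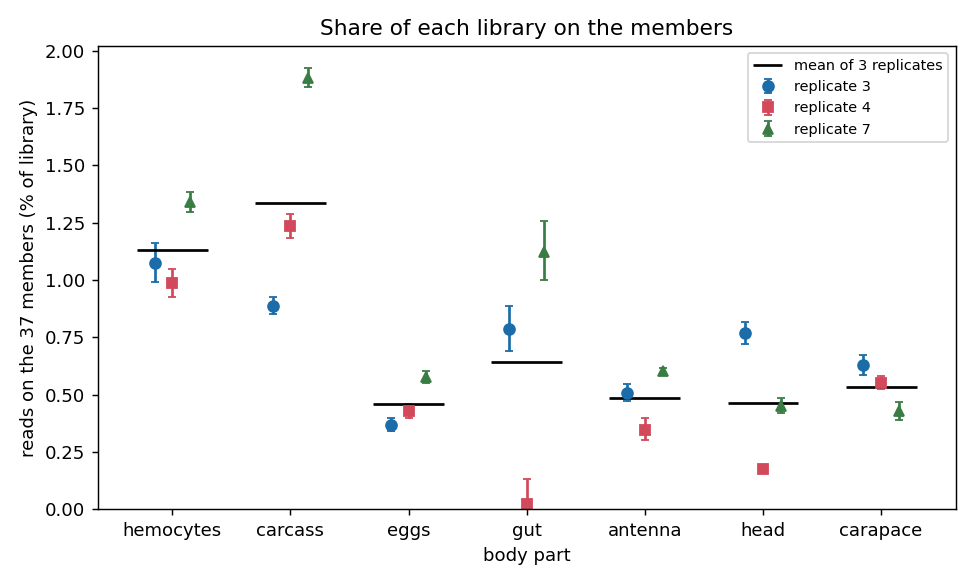
Reads on the 37 members as a percentage of each library, by body part. Points are single libraries with exact 95% binomial intervals, symbols mark the replicate and black lines are means of 3 replicates; hemocytes and carcass run from 0.888% to 1.88%, and the gut splits into 2 libraries at 0.786% and 1.12% and 1 at 0.0240%.

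Most of these reads came from few members. The members had 33720 reads in all, with a median of 291 and a range of 101 to 7769. The 2 most read held 40.4% of them and the 4 most read 56.7%, while 15 members had under 200 reads. Without the 2 most read, the members' share of reads was 0.735% ± 0.270 in hemocytes, 0.822% ± 0.295 in carcass and 0.123% ± 0.00529 in eggs (SD, n = 3). On that measure the antenna had 0.328% ± 0.0712, the gut 0.310% ± 0.289 and the carapace 0.295% ± 0.115 (SD, n = 3). The head had 0.253% ± 0.140 (SD, n = 3). The carcass was the highest body part for 27 members and hemocytes for 10. The pair share ran from 0.504 to 0.762 with a median of 0.568.

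The most read member was maker-falcon_000018F-augustus-gene-3.54-mRNA-2, with a transcript of 864 bases and 7769 reads. It stood at 2286, 2299 and 1562 CPM in hemocytes and at 949.7, 3513 and 4488 CPM in carcass of replicates 3, 4 and 7. Eggs had 1552, 1847 and 2770 CPM, and gut 1118, 0 and 4587 CPM. The antenna had 639, 409.9 and 1249 CPM, the head 2329, 481 and 761 CPM, and the carapace 1078, 1194 and 1404 CPM. Its highest library was thus the gut of replicate 7, and hemocytes overlapped with eggs, while the head of replicate 3 was above all 3 hemocyte libraries.

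The next, maker-falcon_000035F-snap-gene-5.94-mRNA-1 (835 bases, 5838 reads), had the same outline. Hemocytes had 2135, 2250 and 1404 CPM, carcass 1072, 2649 and 2742 CPM, and eggs 955, 1213 and 1727 CPM. Gut had 714, 0 and 3601 CPM, antenna 915, 581 and 933 CPM, head 1793, 345 and 640.2 CPM, and carapace 1255, 1114 and 1178 CPM. These 2 members followed each other across the 21 libraries (Pearson r = 0.98 on log2(CPM + 10), a description over libraries that share pools). Their outline was not theirs alone: 22 transcripts with at least 100 reads correlated with the first at 0.95 or more and 21 with the second, and in each case 1 of them was a member.

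The third member by reads, maker-falcon_000014F-augustus-gene-25.61-mRNA-1 (2250 bases, 3522 reads), was uneven between replicates. Hemocytes had 1034, 303 and 3166 CPM and carcass 1041, 847 and 2145 CPM. Eggs were low and even, at 102, 113 and 129 CPM, whereas the gut had 1553, 0 and 37.9 CPM. The antenna had 773, 290.4 and 564 CPM, the head 389.5, 112 and 577 CPM, and the carapace 668, 349 and 273 CPM. In replicate 3 the gut was above both hemocytes and carcass, and in replicate 7 it was the lowest library of the pool.

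The fourth and the fifth members cannot be counted as separate. maker-falcon_000016F-augustus-gene-23.144-mRNA-1 (690 bases, 1994 reads) and maker-falcon_000031F-augustus-gene-9.76-mRNA-1 (681 bases, 1944 reads) lie on different contigs, yet had equal counts in 16 of 21 libraries and r above 0.99. They may hold the same reads, and both are reported as uncertain. The second of them is named because of this match, which was seen in the values. The first had 384, 39.1 and 749.8 CPM in hemocytes and 427, 226 and 1610 CPM in carcass of replicates 3, 4 and 7. It had 0, 6.28 and 3.07 CPM in eggs, 93.2, 0 and 37.9 CPM in gut, and 128, 34.2 and 714 CPM in the antenna. The head had 64.9, 76.2 and 213 CPM and the carapace 338, 63.1 and 37.7 CPM. Hemocytes of replicate 4 were below the head and carapace of the same pool, and the antenna of replicate 7 was close to the hemocytes of that pool.

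**Figure D2:**
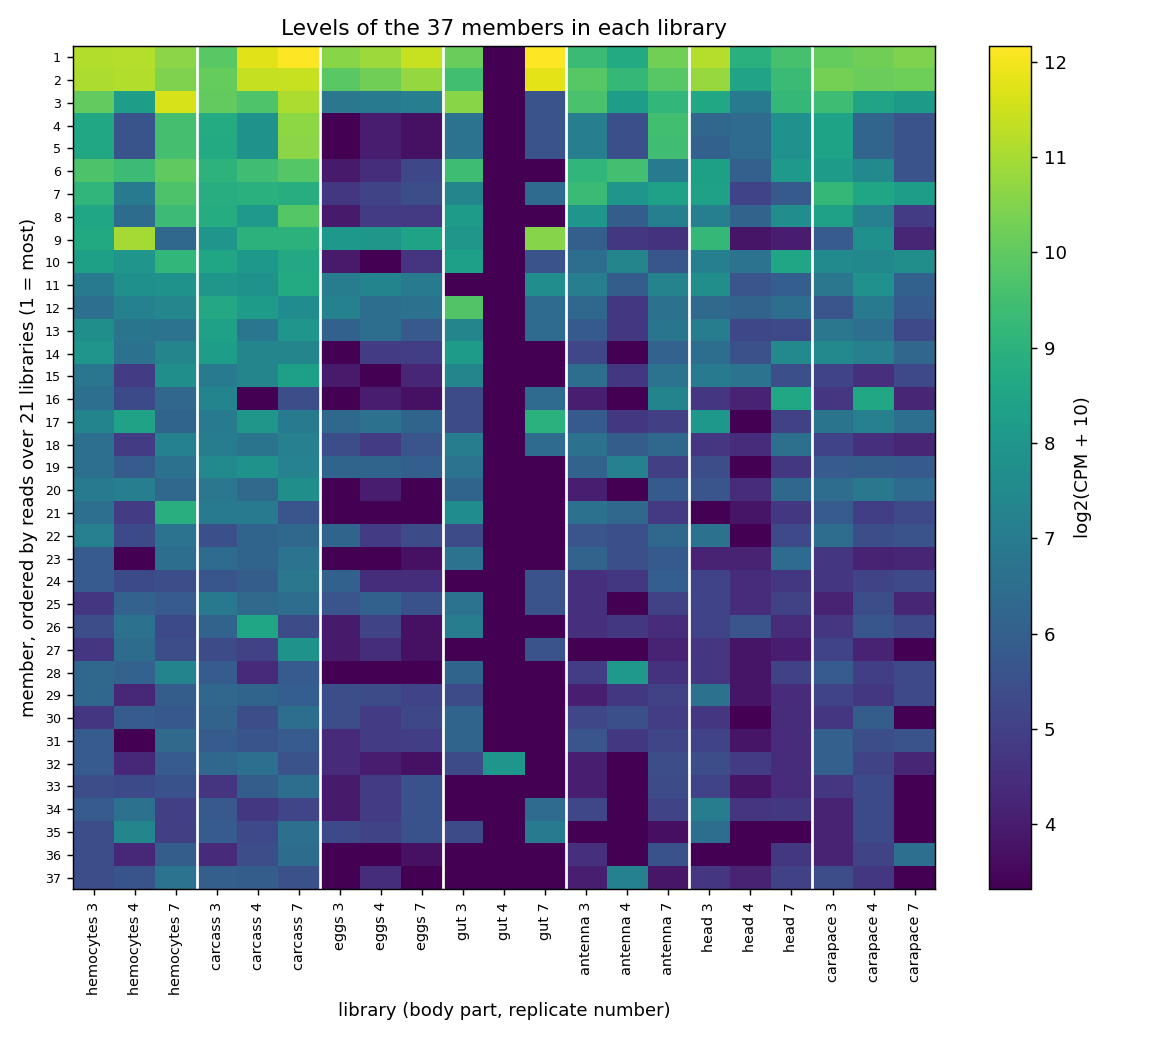
Levels of the 37 members as log2(CPM + 10) in the 21 libraries, which are grouped by body part and labelled with the replicate number. Rows are ordered by reads, from 7769 to 101; the column of the gut of replicate 4 is dark but for 1 member, and eggs are dark for the members with an egg share near 0.

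The body part that came next behind hemocytes and carcass divided the members. It was the carapace for 14 members, the antenna for 9, eggs for 9, the gut for 4 and the head for 1. The 9 with eggs next had an egg share of 0.116 to 0.17 and held 16057 reads, and the 2 most read members were among them. In the 9 with the antenna next the median egg share was 0.00503, and in the 14 with the carapace next it was 0.0241. The carcass was above hemocytes in 9 of 9 members with eggs next, 8 of 14 with the carapace next and 6 of 9 with the antenna next. The division itself rested on the gut of replicate 4. Without that library the gut came next for 19 members, the carapace for 8, the antenna for 6, eggs for 3 and the head for 1, and 20 of the 37 members had the same next body part as with it.

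The egg limit of 0.01 is part of the rule, and 10 members lay below it. The nearest egg shares on its 2 sides were 0.00516 and 0.0125. These 10 entered through a pair share of at least 0.6, which ran from 0.601 to 0.725. They had 27 egg reads among 7284 reads in all, of which 1994 and 1944 were on the 2 members with matching counts. The other 27 members had 3186 egg reads among 26436, and 1470 and 924 of these egg reads were on the 2 most read members. Of the 10, maker-falcon_000021F-augustus-gene-15.33-mRNA-1 and maker-falcon_000016F-augustus-gene-15.67-mRNA-1 had no read among the 661067 egg reads, which allows up to 4.54 CPM over the 3 egg libraries; they are named for this count, after their values were seen.

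The balance between hemocytes and carcass varied between replicates, and the rule limits it, since it caps both shares. As log2(CPM + 10), hemocytes minus carcass, the members' median was -0.16, -0.63 and -0.45 in replicates 3, 4 and 7. Taking the mean over replicates first, the median was -0.37 for the members and -0.14 for all transcripts with 100 reads. Part of the lean toward carcass is thus shared by all such transcripts. Hemocytes were above carcass for 15, 9 and 12 of the 37 members in replicates 3, 4 and 7. The sign was the same in 3 of 3 replicates for 13 members, with 12 lower and 1 higher in hemocytes, and was mixed for 24.

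The member furthest toward hemocytes was maker-falcon_000021F-augustus-gene-15.33-mRNA-1 (1551 bases, 142 reads), at 1.17 ± 0.70 (SD, n = 3) on that scale. Its hemocyte levels were 66.7, 58.7 and 148 CPM and its carcass levels 49.6, 11.3 and 48.0 CPM. It had 0 reads in all egg libraries. The gut had 62.1, 0 and 0 CPM, the antenna 20.2, 256 and 14.5 CPM, the head 16.2, 4.01 and 23.1 CPM, and the carapace 48.3, 21.02 and 28.3 CPM. The 256 CPM in the antenna of replicate 4, from 15 reads, was its highest level.

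The member furthest toward carcass was maker-falcon_000019F-augustus-gene-15.56-mRNA-2 (5270 bases, 291 reads), at -1.20 ± 0.69 (SD, n = 3). Carcass had 179, 220.3 and 142 CPM and hemocytes 83.4, 48.9 and 88.7 CPM, with no overlap. Eggs had 62.5, 62.8 and 52.1 CPM, gut 93.2, 0 and 0 CPM, antenna 60.5, 137 and 21.7 CPM, head 32.5, 0 and 17.3 CPM, and carapace 48.3, 50.5 and 47.1 CPM. Its hemocyte level in replicate 4, from 5 reads, was below the antenna, eggs and carapace of the same pool.

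Within single replicates the pair was not always on top. Hemocytes and carcass were the 2 highest body parts for 8, 11 and 23 of the 37 members in replicates 3, 4 and 7. Among all 4596 transcripts with 100 reads this held for 2.05%, 5.20% and 3.87%, but the rule used these values and nothing is read from the difference. It held in 3 of 3 replicates for 1 member, in 2 for 8, in 1 for 23 and in none for 5. A pair share of at least 0.5 within the replicate was seen in 8, 28 and 23 members, beside 3.50%, 13.8% and 6.18% of all transcripts with 100 reads. With the gut left out of replicate 4, the pair was highest there for 11 members (6.14% of all) and had a share of at least 0.5 for 29 (16.6% of all). In replicate 3 the gut was above both hemocytes and carcass for 8 members and the highest body part was the head for 6.

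The 1 member with the pair highest in 3 of 3 replicates was maker-falcon_000004F-augustus-gene-31.52-mRNA-1 (2539 bases, 770 reads), named for this count. Hemocytes had 317, 235 and 573 CPM and carcass 355, 254 and 398 CPM. Eggs had 5.69, 0 and 15.3 CPM, gut 310.5, 0 and 37.9 CPM, and antenna 80.7, 154 and 41.6 CPM. The head had 130, 92.3 and 363 CPM and the carapace 177, 164 and 198 CPM. Margins were narrow in places: the gut of replicate 3 came from 10 reads and lay just under the hemocytes, which came from 19.

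**Figure D3:**
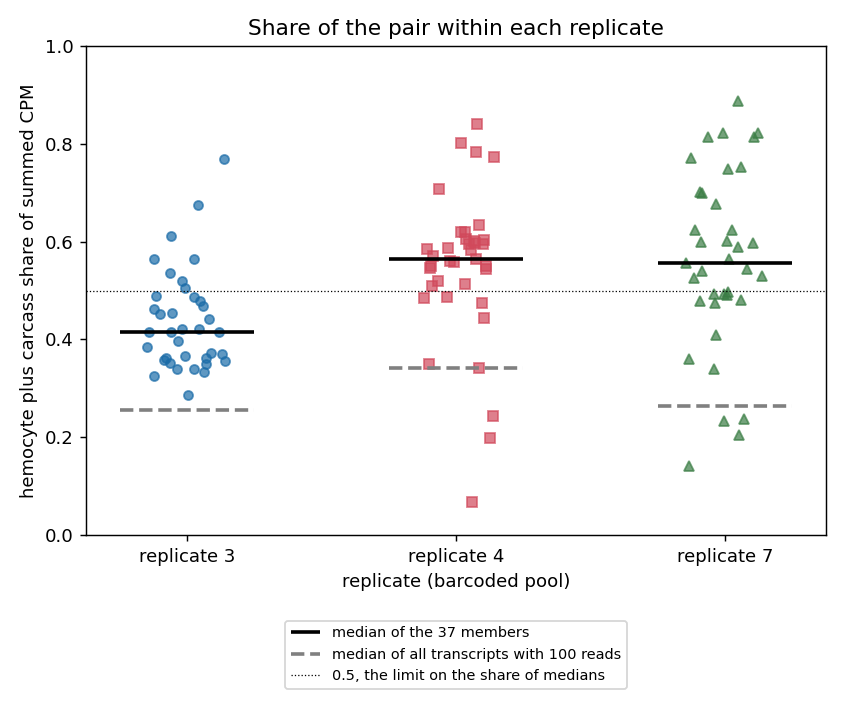
Hemocyte plus carcass CPM as a share of the summed CPM of the 7 body parts, computed within each replicate. Each point is 1 of the 37 members, black lines are their medians (0.416, 0.564 and 0.557 in replicates 3, 4 and 7), dashed grey lines are the medians of all transcripts with 100 reads (0.257, 0.342 and 0.265), and the dotted line marks 0.5.

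Members chosen anew from 2 replicates could be read in the replicate that was not used, which has 1 library a body part and so allows no test. From replicates 4 and 7 the rule chose 37 transcripts, and in replicate 3 hemocytes and carcass were the 2 highest body parts for 4 of them (10.8%), beside 2.12% of all 3826 transcripts with 100 reads in the choosing libraries. From replicates 3 and 7 it chose 26, with 5 (19.2%) holding in replicate 4 beside 5.09% of 3907. From replicates 3 and 4 it chose 16, with 0 holding in replicate 7 beside 3.79% of 2668. The median pair share in the replicate not used was 0.366, 0.482 and 0.262, beside 0.259, 0.344 and 0.268 over all such transcripts. In replicate 7 the median of the transcripts chosen elsewhere was thus just under that of all transcripts. Without the gut of replicate 4, 1 of 24 held in replicate 3 (background 2.12%), 6 of 26 in replicate 4 (6.09%) and 1 of 12 in replicate 7 (3.79%).

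Which transcripts met the rule depended on single libraries and on the scaling. Without the gut of replicate 4 the rule chose 13 transcripts, 12 of them among the 37, and 18 of the 37 then had a pair share under 0.5. The members' median gut share was 0 with that library, because it set the gut median to the lower of the other 2 libraries wherever it had no read, and 0.146 without it. Without it the gut was above hemocytes or carcass for 13 members and the highest body part for 5. Without the head of replicate 4 the rule chose 23 transcripts, 20 of them among the 37. Leaving out each of the other 19 libraries gave 27 to 45 transcripts, of which 15 to 34 were among the 37. With TMM-scaled sizes it chose 21, of which 12 were among the 37, and with means in place of medians 25, of which 7 were.

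**Figure D4:**
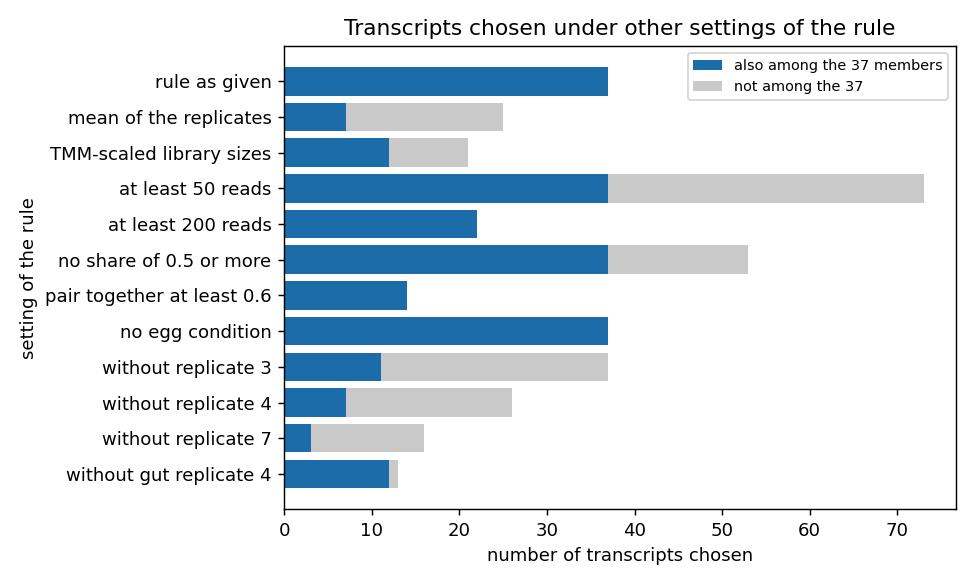
Number of transcripts chosen under each setting of the rule, split into those among the 37 members (blue) and others (grey). Without replicate 7 the rule chose 16 transcripts with 3 among the 37, and without the gut of replicate 4 it chose 13 with 12 among the 37.

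Values near the limits were close on both sides. Just inside the limit of 0.5, the pair share was 0.504 for maker-falcon_000003F-augustus-gene-4.101-mRNA-1 and 0.507 for the second most read member. Just outside it were maker-falcon_000000F-augustus-gene-72.57-mRNA-4 at 0.499 and maker-falcon_000001F-snap-gene-2.3-mRNA-1 at 0.498. Of 79 transcripts that met every other condition, the cap of 0.4 on a single share removed 42: 36 had a carcass share and 9 a hemocyte share of 0.4 or more, 3 of them both. By the same rule without its egg condition, the number of transcripts shared by a pair of body parts ran from 0 for gut and head to 279 for eggs and carcass, and hemocytes with carcass ranked 11 of 21 pairs with 37. Hemocytes shared 189 with eggs and 110 with the carapace.

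The rule did not order gut, antenna, head and carapace among themselves, so differences among these could be tested, although the rule caps their size. The tests ran over all 4035 transcripts that passed the filter on low counts, and 30 of the 37 members were among them. The 30 included both members with matching counts, which may hold the same reads. A member could pass through its hemocyte and carcass libraries, so these 30 do not stand for all members. Head and antenna, which both hold nerve, sensory or muscle tissue, differed in 1.21% of all transcripts tested (49 of 4035, edgeR quasi-likelihood test, adjusted p under 0.05) and in 0 members. At an unadjusted p under 0.05 there were 4 of 30 members beside 13.9% of all. The members' median log2 fold change was 0.29, with a range of -2.18 to 2.89, beside 0.04 over all transcripts. That median ran from -0.08 without the head of replicate 7 to 1.26 without the antenna of replicate 7, and was -0.23 without the filter on low counts.

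Head and carapace differed in 1.39% of all transcripts tested (56 of 4035, edgeR) and in 0 members, with 4 of 30 members at an unadjusted p under 0.05 beside 13.0% of all. With the replicate as a block, the whole table had 50 transcripts higher and 55 lower in head, against 41 and 15 without it, and still 0 members. The members' median log2 fold change was 0.42 (-1.75 to 2.73), beside 0.03 over all; it was 1.16 without replicate 3, -0.08 without replicate 7 and 0.01 without the head of replicate 7. Antenna and carapace differed in 2.23% of all (90 of 4035, edgeR) and in 0 members, with 3 of 30 members at an unadjusted p under 0.05 beside 14.4% of all. The median log2 fold change was 0.12 (-2.19 to 2.43), beside -0.15 over all; it was -0.65 without the antenna of replicate 7 and 0.65 without replicate 3. The smallest adjusted p of a member was 0.254, 0.193 and 0.152 in these comparisons. DESeq2 called 0 members in each as well, with an adjusted p for 22, 25 and 30 of the 30 members.

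The gut against the mean of head, antenna and carapace differed in 0.644% of all transcripts tested (26 of 4035, edgeR) and in 0 members by edgeR and 0 by DESeq2, which gave an adjusted p for 13 of the 30. At an unadjusted p under 0.05 there were 6 of 30 members beside 19.1% of all. Both members with matching counts were among these, and they may hold the same reads. Nothing is therefore read from the difference to all transcripts. With the replicate as a block, 55 transcripts of the whole table were lower in gut against 18 without it, 8 were higher in both fits, and 0 members were called. The members' median log2 fold change was -0.56 (-2.79 to 2.22), beside -0.46 over all. Leaving out single gut libraries gave a median of -4.03 (replicate 3 left out), -0.31 (replicate 4) and -0.26 (replicate 7). Leaving out all of replicate 3 gave -3.96 and all of replicate 7 gave 0.40. The gut of replicate 7 had reads on 19 of the 37 members and that of replicate 4 on 1, and the fitted fold of a member with no gut read left is no bound. Without the head of replicate 3, maker-falcon_000012F-augustus-gene-12.29-mRNA-1 was called higher in gut (log2 fold change 3.35 ± 0.79, edgeR, adjusted p = 0.0261), against 2.22 ± 0.84 and an adjusted p of 0.158 with all libraries. It was also called without all of replicate 3 (3.67 ± 0.95, edgeR, adjusted p = 0.0396). Without the gut of replicate 3, maker-falcon_000004F-augustus-gene-15.71-mRNA-1 was called lower in gut (edgeR, adjusted p = 0.048), against an adjusted p of 0.683 with all libraries; it then had no gut read, so its fitted fold is not given. Both were named after these calls were seen. The smallest adjusted p over the members ran from 0.0261 to 0.227 over the edgeR alternatives. A typical standard error of a member's log2 fold change was 0.83 to 0.97 over the 4 comparisons.

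**Figure D5:**
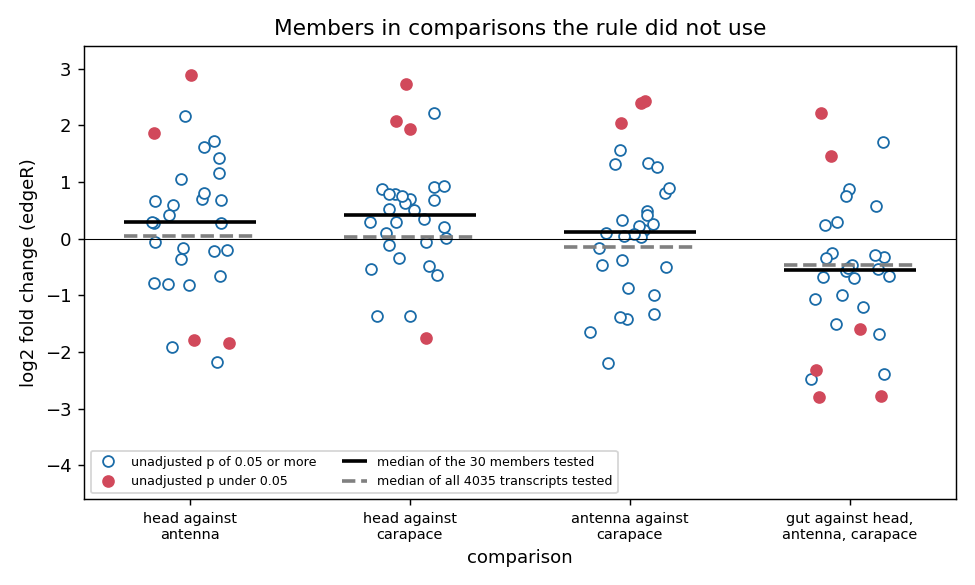
Log2 fold changes (edgeR) of the 30 members tested, in 4 comparisons among body parts that the rule did not order. Filled red points had an unadjusted p under 0.05 and none an adjusted p under 0.05; black lines are the members' medians (0.29, 0.42, 0.12 and -0.56) and dashed grey lines those of all 4035 transcripts (0.04, 0.03, -0.15 and -0.46).

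The member maker-falcon_000012F-augustus-gene-12.29-mRNA-1 (1933 bases, 1001 reads) had unlike replicates behind its medians. Hemocytes had 400.4, 1986 and 70.2 CPM and carcass 236, 508 and 501 CPM. Eggs had 250.2, 245 and 331 CPM and gut 248, 0 and 1516 CPM. The head had 584, 4.01 and 5.77 CPM, the antenna 53.8, 17.1 and 14.5 CPM, and the carapace 48.3, 206 and 9.42 CPM. Hemocytes of replicate 7 were below the eggs, carcass and gut of that pool, while those of replicate 4 were the highest of all 21 libraries.

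The spread between replicates is given for the members beside all transcripts with 100 reads. On log2(CPM + 10), the median SD over 3 replicates was 0.81 for the members and 0.77 for all in hemocytes, and 0.60 and 0.54 in carcass. Eggs had the lowest values on this scale, at 0.36 and 0.39. The members' median egg level was 11.4, 18.8 and 24.5 CPM in replicates 3, 4 and 7. Levels that near the pseudocount of 10 have their spread narrowed on this scale. The gut had 1.94 and 1.79, and 1.81 and 1.05 over the 2 replicates other than replicate 4. Wherever replicate 4 had no gut read, the rule used the lower of these 2 gut libraries. It thus favors members with 1 low gut library, and nothing is read from the gut difference. The antenna had 0.90 and 0.62, the head 0.97 and 1.04, and the carapace 0.65 and 0.61.

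Length, contig and name were outside the rule and are given without a test. The members' median length was 1933 bases, from 411 to 17849, against 2797 for the 4596 transcripts with 100 reads, and 18 of 37 lay between that set's quartiles of 1433 and 4765 bases. The members lay on 23 contigs, with at most 4 on 1 contig. All 33957 model transcripts lay on 572 contigs, a wider set than the transcripts with 100 reads, so nothing is read from these counts. Of the members, 32 of 37 (86.5%) carried the prefix maker in their name against 74.7% of transcripts with 100 reads. Across the 21 libraries the 666 pairs of members correlated at a median Pearson r of 0.44 (-0.45 to 1.0) on log2(CPM + 10), with 287 pairs at 0.5 or more and 27 under 0. The highest value belonged to the 2 members with matching counts. All members share libraries, and the rule itself makes them alike, so these correlations describe the list only.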

How the data were processed

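The authors deposited 1 table with the read count, the RPKM and the length of each model transcript in each library. The counts are whole reads, used unchanged. The deposited RPKM values were scaled to the reads of a whole replicate, so they follow library depth and were not used. SAMtools and DESeq2 are named in the submitters' processing notes; the aligner, the build and the gene models are not given in the sources read here. Libraries were grouped by the body part of their barcode, per the labels, and 0 columns were set aside.

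CPM used total reads, with a pseudocount of 10 on the log2 scale. Tests used edgeR 4.0.16 in R 4.3.3: filterByExpr (minimum count 10) kept 4035 transcripts, TMM factors ran from 0.251 to 2.15, and glmQLFit estimated 1 mean for each body part from all 21 libraries together (common dispersion 0.29). Two-sided p-values from glmQLFTest, edgeR's quasi-likelihood test, were adjusted by the Benjamini-Hochberg method over all transcripts tested, with a threshold of 0.05. Fold change errors are approximate standard errors, the absolute log2 fold change divided by the square root of the F value of that test. The fit was tested on simulated data. DESeq2 1.42.0, RLE factors, no filter, the replicate as a block and left-out libraries were alternatives.

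Libraries with the same replicate number were barcoded in 1 pool, per the labels, which pairs them. After the mean of each body part was removed, 28 of 63 same-numbered pairs correlated above 0.1 (median 0.0764). The tests reported left the block out.

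The members, the tests and the alternatives were chosen with earlier results of these data known. Named were the 4 members with most reads, the extremes of the hemocyte to carcass difference, transcripts next to the limit of 0.5 and at most 2 called members in each direction of a test; others are marked. The rule also named pairs of members on 1 contig that correlated at 0.95 or more, of which there were 0.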

Additional observations from a re-analysis of the deposited data

How the results depend on the processing

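The number of transcripts that met the rule was 37. It was 21 with TMM-scaled library sizes, 73 with at least 50 reads, 22 with at least 200 reads and 14 with a pair share of at least 0.6, and it ran from 13 to 45 when a replicate or a library was left out; single libraries other than the gut and head of replicate 4 kept it within 1.5 times. These single-library settings, and the other values given without the gut of replicate 4 outside the edgeR fits, were chosen after seeing the data. The cause of the change with scaling was not tested. With TMM-scaled sizes the mean share of reads on the members was 0.266% in eggs, 0.689% in antenna, 0.666% in carapace, 0.757% in head and 0.429% in gut; these last 2 moved by less than 1 SD, as did hemocytes and carcass. With at least 50 reads, the pair was highest for 5 of 66 re-chosen members in replicate 3, 8 of 39 in replicate 4 and 1 of 23 in replicate 7. Over all such transcripts this held for 1.97%, 5.41% and 3.61%. Without the gut of replicate 4 it was 1 of 24, 6 of 26 and 1 of 12, beside 2.12%, 6.09% and 3.79% of all.

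No member was called in head against antenna, head against carapace or antenna against carapace in any of 29 alternative fits each. In the gut comparison the count ran from 0 to 1 in each direction over the 24 fits that left out a replicate or library, and was 0 in the other 5. Calls over the whole table moved more. Without the filter on low counts, head against antenna had 124 higher and 187 lower transcripts, head against carapace 151 and 47, antenna against carapace 272 and 67, and gut 38 and 102. With only the body parts compared in the fit, head against antenna had 12 higher, head against carapace 15 higher and 8 lower, antenna against carapace 139 and 58, and gut 0 higher. DESeq2 called 73 lower in head against antenna, 76 lower in head against carapace, 131 higher and 54 lower in antenna against carapace, and 45 higher and 129 lower in gut. With RLE factors gut had 3 lower transcripts. With the replicate block head against carapace had 55 lower and gut 55 lower, and the block changed no call of a member. Leaving out a replicate or library gave 6 to 73 higher and 1 to 57 lower for head against antenna, 0 to 99 and 0 to 30 for head against carapace, 0 to 136 and 0 to 58 for antenna against carapace, and 0 to 55 and 0 to 107 for gut.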
